A study of Arabidopsis thaliana with 12 samples.

Results

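BZIP60 (AT1G42990), BZIP28 (AT3G10800) and BZIP17 (AT2G40950) encode the basic leucine zipper (bZIP) transcription factors through which Arabidopsis answers stress of the endoplasmic reticulum (ER). The genes were chosen by name, with earlier results of these data known. Each has 1 probe set on the array, 259626_at for BZIP60, 258759_at for BZIP28 and 245092_at for BZIP17, so the account covers 3 of the 13436 probe sets that were paired with a single gene, from 13286 genes. All 3 passed the filter on dim signals, as did 13647 of the 22746 probe sets that are not array controls.

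The series measured RNA of whole seedlings of ecotype Columbia (Col-0), 10 days old and grown at 22 °C, on 12 one-colour arrays labelled by a 3′ kit. The 4 groups of 3 arrays were ire1a ire1b seedlings with tunicamycin, ire1a ire1b seedlings with mock, wild-type seedlings with tunicamycin, and wild-type seedlings with mock. Treatment lasted 5 h, with tunicamycin at 5 mg per litre in the treated groups and DMSO, the solvent, in the mock groups. All 4 groups, the mock groups included, also carried actinomycin D, an inhibitor of transcription, at 75 µM, given 2 h ahead, so every level below is that of a transcript pool under that block. The labels give no alleles for the double mutant, and IRE1A and IRE1B were not analysed here because no probe set was named for them, so the genotype label was not checked against its genes. Whether the 3 samples in a group are separate cultures is not in the labels. The p-values therefore speak only to the scatter among these particular samples, which could be technical.

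All 3 factors are made as proteins anchored in the ER membrane. For BZIP60 the switch is its mRNA: IRE1, an ER membrane sensor with an RNase domain, cuts an intron from it in the cytoplasm, and the shifted reading frame yields a factor without the membrane anchor that enters the nucleus. BZIP28 and BZIP17 are switched as proteins: under stress they travel to the Golgi and are cut there. The site-1 and site-2 proteases (S1P and S2P) have been named for this step. The freed domain enters the nucleus and turns on genes for ER chaperones and for degradation of misfolded proteins. BZIP28 is held in the ER by the chaperone BiP, and BZIP17 is also known from the response to salt. Tunicamycin blocks N-glycosylation of proteins in the ER and is a standard inducer of this response. The arrays measured total signal of each probe set, which here does not separate spliced from unspliced BZIP60 mRNA and says nothing of cleavage or movement of the proteins.

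The 12 arrays had median signals of 107.0 to 119.2, and any pair of arrays correlated at 0.957 to 0.989 (Pearson r of log2 signal over all probe sets). The deposited scaling puts the trimmed mean of every array at 500.1, so a change is relative to the bulk of each array, and in whole seedlings fewer cells of a type and less RNA per cell cannot be told apart. The 3′ over 5′ signal of 6 control transcript pairs, a sign of RNA quality, was 1.80 ± 0.23 in ire1a ire1b tunicamycin, 1.71 ± 0.08 in ire1a ire1b mock, 1.92 ± 0.17 in wild-type tunicamycin and 1.80 ± 0.05 in wild-type mock arrays (log2, SD, n = 3 each). Its differences between groups had two-sided exact permutation p-values of 0.2 to 0.8. Of 16 leaf and root marker genes, 4 had a probe set. RCA, the Rubisco activase of green tissue, had group means of 26629 to 27338.5. PYK10, an ER body protein of roots, had group means of 24641 in ire1a ire1b tunicamycin, 23105 in ire1a ire1b mock, 10067 in wild-type tunicamycin and 22997.5 in wild-type mock arrays. The root genes EXPA7 and GH9C1 were dim, at group means of 47.0 to 80.9. In the same order of groups, EXPA7 had means of 57.2, 80.9, 47.0 and 75.2, and GH9C1 of 53.3, 58.3, 77.8 and 67.4. PYK10 was thus lowest in the group where BZIP60 was highest, wild-type tunicamycin. EXPA7 had its lowest mean there and GH9C1 its highest, but both lay below the filter on dim signals, and their differences between groups were not tested. The part of PYK10 in the BZIP60 result was not tested.

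In wild type, BZIP60 was higher with tunicamycin. Its signal was 1045, 1425 and 1554 on the wild-type tunicamycin arrays, against 928, 904 and 687 on the wild-type mock arrays. The lowest tunicamycin array lay above the highest mock array, so the groups did not overlap. The means were 1342 ± 265 and 840 ± 133 in wild-type tunicamycin and wild-type mock seedlings (SD, n = 3 each). BZIP60 rose by 0.67 ± 0.17 on the log2 scale (SE of the limma fit; 95% confidence interval 0.29 to 1.04), a 1.59-fold difference, with an adjusted p of 0.0348 over all probe sets tested. Of all probe sets tested, 6.21% passed in this comparison: 0.432% rose, 59 in number, and 5.77% fell. Groups that did not overlap, with tunicamycin higher, were found for 14.2%. BZIP60 had the 94th highest log2 change of the 13647.

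The size of the BZIP60 difference varied among arrays. Pairing arrays by their number, the log2 difference was 0.17 for number 1, 0.66 for number 2 and 1.18 for number 3. The lowest came from the dimmest tunicamycin array with the brightest mock array. The wild-type arrays were treated as unpaired, since deviations of same-numbered arrays from their group means correlated at 0.0172 to 0.131, not all above 0.1. With groups apart every such difference is positive. An exact permutation test of the 3 against 3 wild-type arrays gave a two-sided p of 0.1, the smallest this design allows. The call did not hold when any of 5 of the 12 arrays was left out: the limma adjusted p was 0.140 without wild-type tunicamycin array 2, 0.164 without tunicamycin array 3, and 0.0552, 0.0657 and 0.163 without wild-type mock arrays 1, 2 and 3 in turn. Of the wild-type arrays, only tunicamycin array 1 could be left out with the call kept (0.84, limma adjusted p = 0.0136). The log2 change stayed between 0.53 and 0.84 when single wild-type arrays were left out. The ire1a ire1b arrays do not enter this change, so leaving one out kept it at 0.67.

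**Figure D1:**
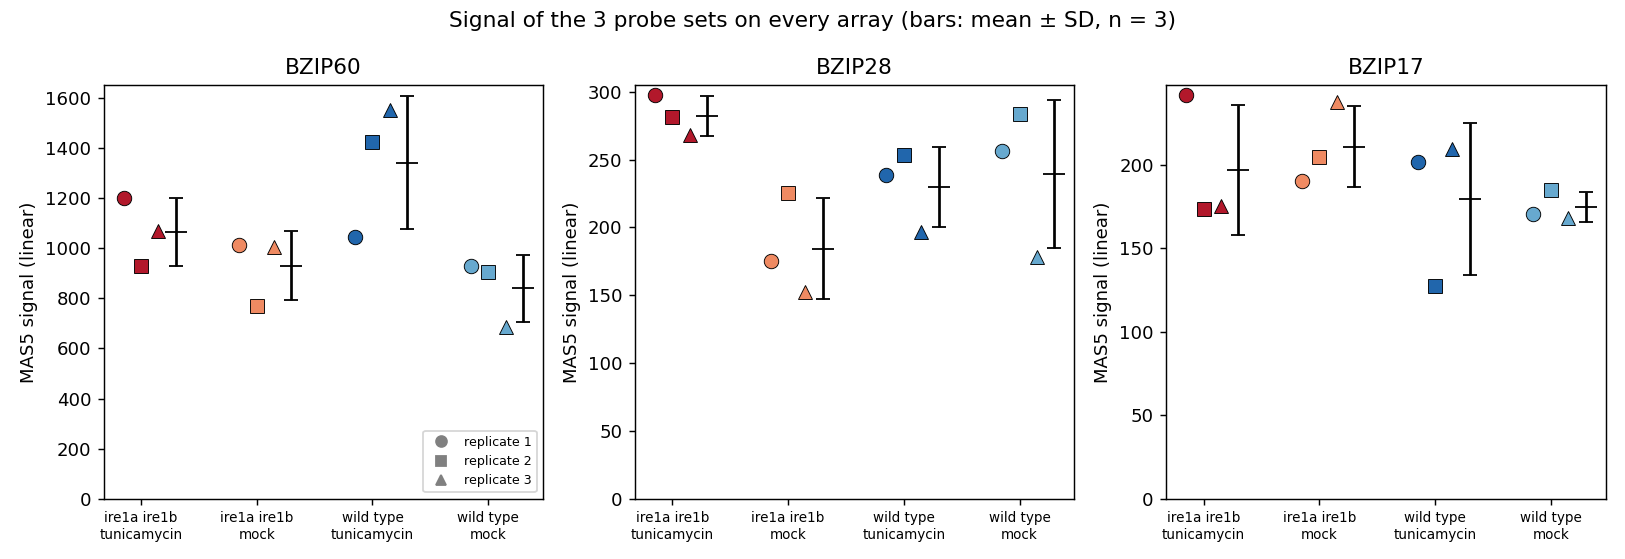
Signal of the BZIP60, BZIP28 and BZIP17 probe sets on each of the 12 arrays, as deposited (linear scale from 0; points are arrays, bars the mean and SD of 3). The 3 wild-type tunicamycin arrays of BZIP60, at 1045 to 1554, lie above the 3 wild-type mock arrays, at 687 to 928; the 3 ire1a ire1b tunicamycin arrays of BZIP28, at 268 to 297, lie above the 3 ire1a ire1b mock arrays, at 152 to 226.

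In the double mutant the BZIP60 difference was smaller and did not pass. The signal was 1200, 929 and 1067 on the ire1a ire1b tunicamycin arrays, against 1015, 771 and 1005 on the ire1a ire1b mock arrays. The groups overlapped, since tunicamycin array 2 lay below mock arrays 1 and 3. The means were 1065 ± 135 and 930 ± 138 in ire1a ire1b tunicamycin and ire1a ire1b mock seedlings. The log2 change was 0.20 ± 0.17 (95% interval -0.18 to 0.57; limma adjusted p = 1.0), and with single arrays left out it ran from 0.070 (without ire1a ire1b mock array 2; also 0.11 without tunicamycin array 1) to 0.29. In this comparison 0.044% of probe sets rose (6) and 0 fell by the limma fit, while 319 were higher and 182 lower at an unadjusted p under 0.05. The same-numbered differences were 0.24, 0.27 and 0.09, all positive.

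The wild-type and the mutant BZIP60 responses were not shown to differ. The interaction, which is the ire1a ire1b effect minus the wild-type effect, was -0.47 ± 0.25 (95% interval -1.0 to 0.06; limma adjusted p = 0.527). Of all probe sets, 3.06% had an interaction that passed, 2.98% a positive and 0.0879% a negative one. A change of 0.97 would have been needed for BZIP60 to pass, about the outer bound of its interval. Averaged over genotypes, the tunicamycin effect was 0.43 ± 0.12 (0.17 to 0.70), which missed the threshold over all probe sets (limma adjusted p = 0.0915; 3.04% of all probe sets passed and 0.374% rose). It passed with array weights (0.39, limma adjusted p = 0.0458) and without wild-type tunicamycin array 1 (0.52, limma adjusted p = 0.0406). The two-sided exact permutation p of that average, with arrays exchanged within each genotype, was 0.02, or 0.36 adjusted over the 18 such tests made on the 3 factors.

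Between genotypes BZIP60 gave no call. Under tunicamycin the ire1a ire1b arrays, at 929 to 1200, overlapped the wild-type arrays, at 1045 to 1554, and the log2 difference was -0.32 ± 0.17 (-0.70 to 0.05; limma adjusted p = 0.298), or -0.49 without wild-type tunicamycin array 1 and -0.20 without wild-type tunicamycin array 3. In this comparison 9.7% of probe sets passed, 6.68% higher and 3.03% lower in ire1a ire1b. Under mock the ire1a ire1b arrays, at 771 to 1015, overlapped the wild-type arrays, at 687 to 928, with a difference of 0.15 ± 0.17 (limma adjusted p = 0.889). That difference depended on single mock arrays, from 0.011 without wild-type mock array 3 to 0.28 without ire1a ire1b mock array 2. Under mock 0.484% of probe sets passed, 22 higher and 44 lower in ire1a ire1b, against 309 and 598 with array weights. By mean, the order of the 4 groups was wild-type tunicamycin, ire1a ire1b tunicamycin, ire1a ire1b mock and wild-type mock, and each neighbouring pair in that order overlapped.

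**Figure D2:**
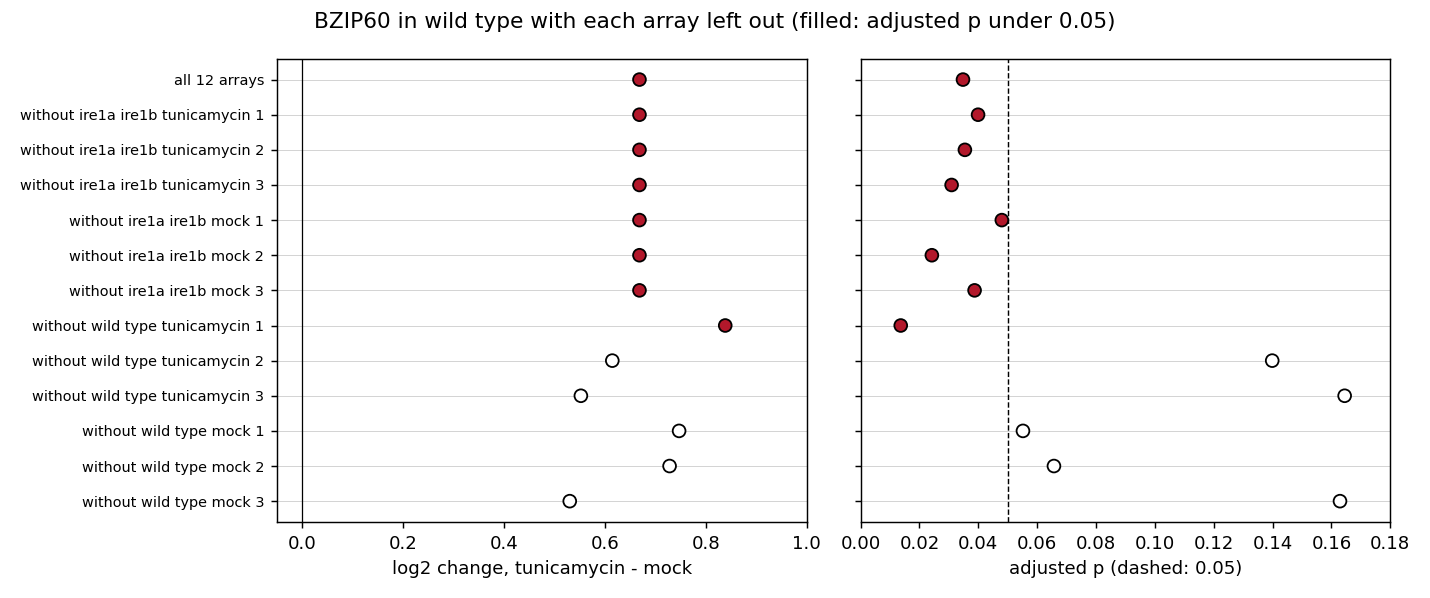
Log2 change of BZIP60 (tunicamycin minus mock in wild type) in the fit of all 12 arrays and with each array left out, with its limma adjusted p. The change stays between 0.53 and 0.84, while the adjusted p is above 0.05 in 5 of the 12 omissions, all of them wild-type arrays. Leaving out an ire1a ire1b array cannot move the change.

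BZIP28 had its highest mean in the double mutant with tunicamycin and its lowest in the double mutant with mock. The signal was 297, 281 and 268 on the ire1a ire1b tunicamycin arrays, against 175, 226 and 152 on the ire1a ire1b mock arrays. The groups did not overlap, an arrangement with tunicamycin higher that 3.96% of probe sets had. The means were 282 ± 15 in ire1a ire1b tunicamycin and 184 ± 37 in ire1a ire1b mock seedlings (SD, n = 3 each). The log2 difference was 0.63 ± 0.19 (95% interval 0.22 to 1.04; a fold of 1.55), the 95th highest of the 13647. It did not pass over all probe sets, with a limma adjusted p of 0.927, and a difference of 1.21 would have been needed. The exact permutation p was 0.1, the smallest possible. With the replicate number as a block, which the arrays of this comparison share by the correlation of their deviations, the difference was again 0.63 and the limma adjusted p 0.302. The lowest limma adjusted p under any alternative setting was 0.123. Same-numbered arrays differed by 0.76, 0.32 and 0.82.

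In wild type, BZIP28 showed no such difference. The signal was 238, 254 and 197 on the wild-type tunicamycin arrays, against 257, 283 and 178 on the wild-type mock arrays. The groups overlapped throughout, and same-numbered arrays differed by -0.11, -0.16 and 0.14. The log2 change was -0.04 ± 0.19 (-0.45 to 0.37; limma adjusted p = 0.937), and its sign turned in 3 of the 12 fits that left out an array, within -0.24 to 0.09. The interaction for BZIP28 was 0.67 ± 0.27 (95% interval 0.09 to 1.26), which did not pass over all probe sets (limma adjusted p = 0.324). Its unadjusted p was under 0.05, as it was for the positive interactions of 8.49% of all probe sets. Under the alternative settings the interaction ran from 0.63 to 0.76, with limma adjusted p-values of 0.0575 to 0.465. With single arrays left out it ran from 0.54 to 0.87 (0.105 to 0.565), so it passed in none of these fits.

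Between genotypes, BZIP28 means lay in opposite order under tunicamycin and under mock, without a call in either. Under tunicamycin the ire1a ire1b arrays, at 268 to 297, all lay above the wild-type arrays, at 197 to 254, as for 11.5% of probe sets, and the difference was 0.31 ± 0.19 (-0.11 to 0.72; limma adjusted p = 0.380), or 0.20 without wild-type tunicamycin array 3. Under mock the ire1a ire1b arrays, at 152 to 226, overlapped the wild-type arrays, at 178 to 283, with a difference of -0.37 ± 0.19 (-0.78 to 0.04; limma adjusted p = 0.681). It was -0.57 without wild-type mock array 3, -0.23 without wild-type mock array 2 and -0.24 without ire1a ire1b mock array 3. By mean, the order was ire1a ire1b tunicamycin, wild-type mock, wild-type tunicamycin and ire1a ire1b mock, and neighbours in the order overlapped. Over both genotypes, the average tunicamycin effect on BZIP28 was 0.30 ± 0.14 (limma adjusted p = 0.407), or 0.20 without wild-type mock array 3.

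BZIP17 gave no call and the smallest tunicamycin effects. The signal was 242, 174 and 176 on the ire1a ire1b tunicamycin arrays, against 191, 205 and 238 on the ire1a ire1b mock arrays. These groups overlapped, and the log2 change was -0.11 ± 0.20 (-0.54 to 0.32; limma adjusted p = 1.0). It was 0.12 with array weights, and -0.27 to -0.020 when single arrays were left out. In wild type the signal was 202, 127 and 210 on the tunicamycin arrays, against 171, 185 and 168 on the mock arrays. Tunicamycin array 2, at 127, was the lowest of all 12, and the other tunicamycin arrays lay above every wild-type mock array. The log2 change in wild type was 0.01 ± 0.20 (-0.42 to 0.44; limma adjusted p = 0.992), and it was -0.04 with arrays centred on their median and -0.01 after quantile normalization. With single arrays left out it ran from -0.12 without tunicamycin array 3 to 0.24 without tunicamycin array 2. The 95% intervals leave room for a change of about 0.4 either way in wild type, and a difference of 0.72 would have been needed to pass.

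Between genotypes BZIP17 gave no call. Under mock, the ire1a ire1b arrays, at 191 to 238, all lay above the wild-type arrays, at 168 to 185, as for 5.32% of probe sets. That difference was 0.27 ± 0.20 (-0.16 to 0.70; limma adjusted p = 0.809). It was 0.18 without ire1a ire1b mock array 3. Under tunicamycin it was 0.15 ± 0.20 (limma adjusted p = 0.713), with overlapping arrays, and its sign turned without wild-type tunicamycin array 2 (-0.079) and without ire1a ire1b tunicamycin array 1 (-0.0062). The interaction was -0.12 ± 0.28 (-0.72 to 0.49; limma adjusted p = 0.927), with the opposite sign under array weights (0.19) and without wild-type tunicamycin array 3 (0.012). By mean, the order was ire1a ire1b mock, ire1a ire1b tunicamycin, wild-type tunicamycin and wild-type mock, with overlap between neighbours.

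**Figure D3:**
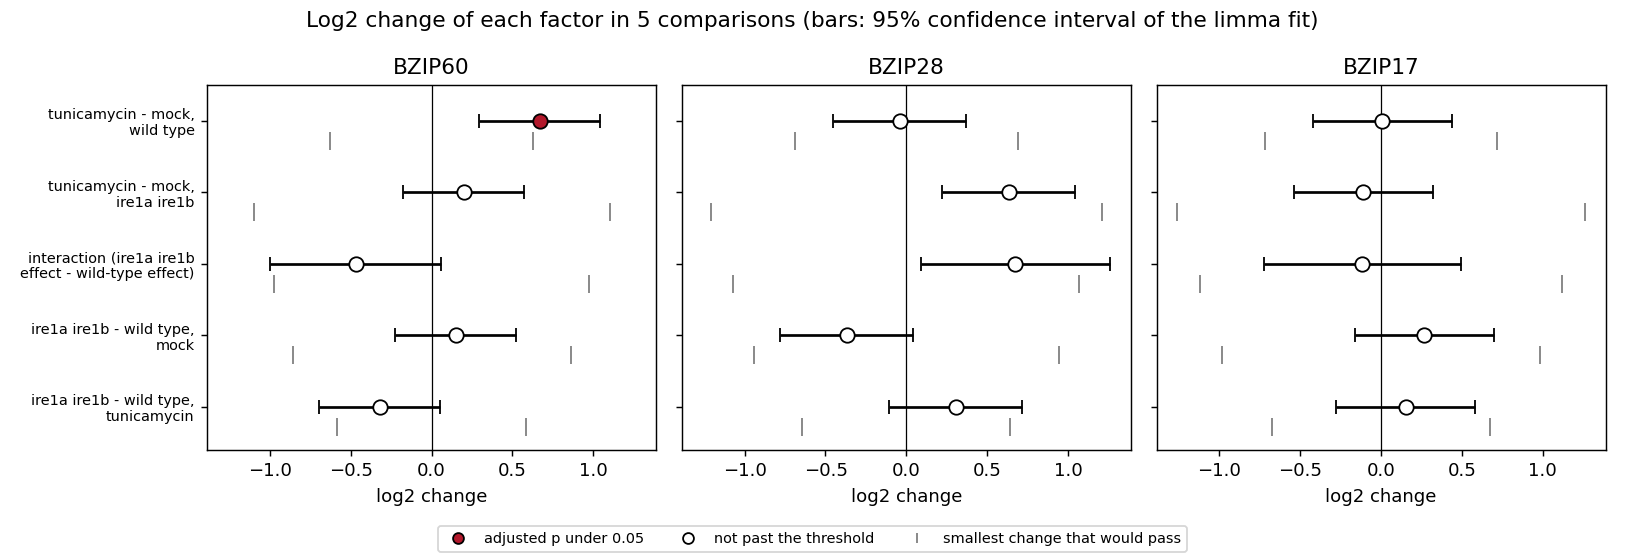
Log2 change of each factor in 5 comparisons with the 95% confidence interval of the limma fit (filled point, adjusted p under 0.05; ticks, the smallest change that would have passed). BZIP60 in wild type, at 0.67, is the single change that passed; BZIP28 in ire1a ire1b, at 0.63, lies well inside its tick at 1.21.

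Over the 3 factors and 5 comparisons, 1 of 15 tests passed, 3 had an unadjusted p under 0.05, and 4 of 12 pairs of groups did not overlap. The 3 were BZIP60 in wild type, BZIP28 in ire1a ire1b and BZIP28 in the interaction. The share of all probe sets with an unadjusted p under 0.05 was 15.3% in wild type, 3.67% in ire1a ire1b, 11.4% in the interaction, 8.08% between genotypes under mock and 23.1% under tunicamycin. The shares that passed were 6.21%, 0.044%, 3.06%, 0.484% and 9.7% in the same order. The 4 pairs apart were BZIP60 in wild type (14.2% of all probe sets were apart in that direction), BZIP28 in ire1a ire1b (3.96%), BZIP17 between genotypes under mock (5.32%) and BZIP28 between genotypes under tunicamycin (11.5%). The threshold differed among comparisons, because few probe sets moved in ire1a ire1b: BZIP28 needed a log2 change of 1.21 there and of 0.69 in wild type. Changes of nearly the same size, 0.67 for BZIP60 in wild type and 0.63 for BZIP28 in ire1a ire1b, thus differed in outcome. The 0.63 of BZIP28 would have missed its wild-type threshold as well. The residual SD of log2 signal was 0.24 for BZIP60, 0.25 for BZIP28 and 0.26 for BZIP17, so the factors differed little in spread. Group membership held 61.8% of the variance of BZIP60, 55.0% of that of BZIP28 and 22.0% of that of BZIP17, against a median of 34.8% over all probe sets tested.

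The factors were also set against each other by the difference of their log2 changes, 18 differences in all, none with an adjusted exact p under 0.4. BZIP60 exceeded BZIP28 by 0.71 in the wild-type tunicamycin effect (exact permutation p = 0.1), and BZIP60 lay below BZIP28 by 0.43 in the ire1a ire1b effect (difference -0.43, exact permutation p = 0.3). BZIP28 exceeded BZIP17 by 0.74 in the ire1a ire1b effect (exact permutation p = 0.1) and differed from it by -0.05 in wild type (exact permutation p = 1). The smallest unadjusted value was that of BZIP60 over BZIP17 in the effect averaged over genotypes, 0.49 (exact permutation p = 0.03). Over the 12 arrays, the log2 signals of the factors were weakly related: r was 0.14 for BZIP60 with BZIP28, -0.02 for BZIP60 with BZIP17 and -0.25 for BZIP28 with BZIP17. These are descriptions over arrays that share their group structure.

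The genes that work with the factors were sparsely measured: of 54 listed, 11 had a probe set of a single named gene, and all 11 were tested. None of the listed genes for disulfide formation, transport to the Golgi, NAC factors or cell survival had one, and BIP1, BIP2 and BIP3 were not analysed here. In wild type 2 of the 11 rose with tunicamycin and 0 fell by limma, with a median log2 change of 0.18 against 0.09 over all probe sets, of which 0.432% rose and 5.77% fell. In ire1a ire1b 0 of 11 passed by limma (4 at an unadjusted p under 0.05), with 10 of 11 positive and a median of 0.24 against 0.01. Over all probe sets 0.044% passed there and 3.67% had an unadjusted p under 0.05. With array weights 2 of the 11 passed, AT5G07340 (limma adjusted p = 0.0147) and ATERDJ3B (0.0498), where 12 of all probe sets rose and 1 fell. Between genotypes 0 of 11 passed under mock (0 also at an unadjusted p under 0.05), where 0.484% of all probe sets passed and 8.08% had an unadjusted p under 0.05. Under tunicamycin 2 were higher and 1 lower in ire1a ire1b, against 6.68% and 3.03% of all probe sets. In the interaction 1 of 11 passed, upward, against 2.98% of all.

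Among the sensors and proteases, S1P, the site-1 protease, had log2 changes of 0.06 ± 0.19 in ire1a ire1b and -0.17 ± 0.19 in wild type, and no call. AT4G20310, the gene of the site-2 protease, had signals of 182, 214 and 184 in ire1a ire1b tunicamycin seedlings, against 127, 99.6 and 133 in wild-type tunicamycin seedlings. These groups did not overlap, and AT4G20310 was higher in ire1a ire1b by 0.70 ± 0.19 (limma adjusted p = 0.0307). The call did not hold without filtering (adjusted p = 0.0623) or when 1 of 4 tunicamycin arrays was left out, with adjusted p-values up to 0.129. Its tunicamycin effects were 0.24 ± 0.19 in ire1a ire1b and -0.31 ± 0.19 in wild type, neither of which passed. HYH, a bZIP factor related to HY5, had a wide error: 0.46 ± 0.34 in wild type and -0.03 ± 0.34 in ire1a ire1b. HYH lay close to the filter on dim signals, with a mean log2 signal of 6.12 against 6.10 and arrays as low as 42.7.

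Among the chaperones, AT5G07340, a calnexin gene whose product folds glycoproteins, rose in wild type. Its signal was 1003, 899 and 915 on wild-type tunicamycin arrays, against 563, 651 and 515 on wild-type mock arrays, a change of 0.71 ± 0.14 (limma adjusted p = 0.00453). In ire1a ire1b it was 830, 762 and 922 with tunicamycin, against 511, 416 and 557 with mock, a change of 0.77 ± 0.14 (limma adjusted p = 0.115). The groups were apart in both genotypes. The change averaged over genotypes was 0.74 ± 0.10 (limma adjusted p = 0.000725), so AT5G07340 passed there where BZIP60 did not. CRT1b, a calreticulin that works in the same folding cycle, had 0.32 ± 0.13 in ire1a ire1b and -0.02 ± 0.13 in wild type (0.003 after quantile normalization), neither of which passed. Under tunicamycin CRT1b was higher in ire1a ire1b than in wild type by 0.42 ± 0.13, with groups apart (limma adjusted p = 0.0574). That difference passed under some other settings, among them the replicate block (limma adjusted p = 0.0148).

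ATERDJ3B, an ER co-chaperone of BiP, was the listed gene with an interaction that passed. Its signal was 2142, 2416 and 2501 in ire1a ire1b tunicamycin, 1584, 1797 and 1445 in ire1a ire1b mock, 1544, 1354 and 1364 in wild-type tunicamycin, and 1628, 1697 and 1494 in wild-type mock seedlings. The ire1a ire1b tunicamycin arrays stood above all the others. The interaction was 0.73 ± 0.16 (limma adjusted p = 0.0197), and under tunicamycin ATERDJ3B was higher in ire1a ire1b by 0.73 ± 0.11 (limma adjusted p = 0.000733). The tunicamycin effects were 0.55 ± 0.11 in ire1a ire1b (limma adjusted p = 0.206) and -0.18 ± 0.11 in wild type (limma adjusted p = 0.493). The interaction did not pass when any of 7 arrays was left out, and its adjusted p then lay between 0.0530 and 0.0649. By mean alone, ATERDJ3B and BZIP28 were highest in the same group, ire1a ire1b with tunicamycin, as were the listed genes CRT1b, AT4G20310 and DER2.1. Against wild-type tunicamycin, BZIP28, CRT1b and DER2.1 gave no call there (limma adjusted p = 0.380, 0.0574 and 0.803). The share of all probe sets highest in that group was not counted, so no link between these genes is read from it. Under tunicamycin 6.68% of all probe sets were called higher in ire1a ire1b than in wild type.

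In ER-associated degradation, which removes misfolded proteins, DER1 rose in wild type. DER1 encodes a derlin, a membrane protein of the export channel. Its signal was 468, 426 and 489 on wild-type tunicamycin arrays, against 257, 281 and 226 on wild-type mock arrays, a change of 0.86 ± 0.15 (limma adjusted p = 0.00202). In ire1a ire1b it was 347, 266 and 365 with tunicamycin, against 249, 219 and 210 with mock, a change of 0.52 ± 0.15 (limma adjusted p = 0.846). Both pairs of groups were apart. Under tunicamycin DER1 was lower in ire1a ire1b, with a difference of -0.51 ± 0.15 (limma adjusted p = 0.0452), a call that did not hold with no filter (adjusted p = 0.0668), with median centring (0.0888), on those groups' arrays alone (0.0885) or without any of 8 single arrays. The interaction, -0.34, did not pass (limma adjusted p = 0.615). DER1 has a second probe set, too dim to be tested. OS9, a lectin that recognises misfolded glycoproteins, had 0.50 ± 0.15 in wild type (limma adjusted p = 0.0758) and 0.13 ± 0.15 in ire1a ire1b. The wild-type value passed with array weights (limma adjusted p = 0.0113) and in a fit of the wild-type arrays alone (0.0409). UBC32, DER2.1 and DER2.2 had no call in any comparison.

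**Figure D4:**
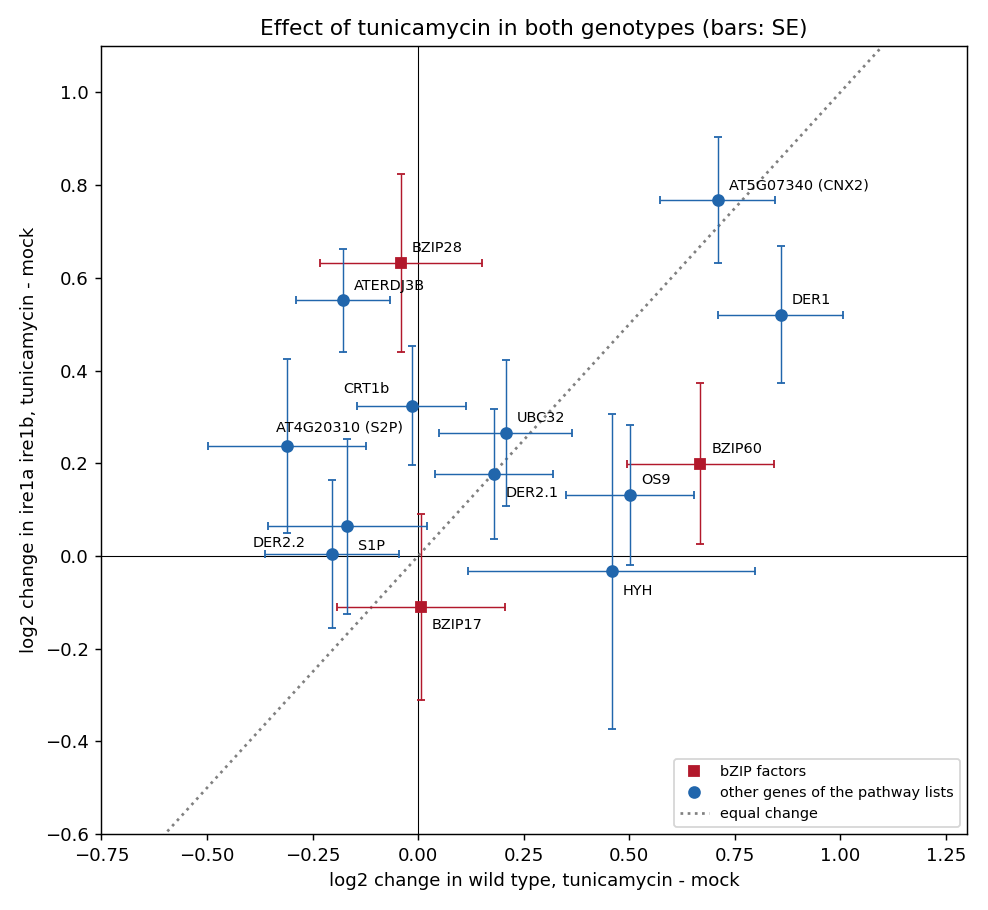
Log2 change by tunicamycin in ire1a ire1b and in wild type for the 3 factors and the 11 listed genes with a probe set (y axis, ire1a ire1b; x axis, wild type; points are limma estimates, bars their SE, the dotted line equal change). DER1, AT5G07340 and BZIP60 lie farthest right, at 0.86, 0.71 and 0.67, and passed in wild type; BZIP28 and ATERDJ3B lie high on the left, at 0.63 and 0.55 in ire1a ire1b, where no gene of the plot passed.

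The rest of the bZIP family gave no calls in the fit of all arrays. Of 46 genes that the gene table names as bZIP with a number, 22 had a probe set and 12 were tested, the 3 factors among them. HYH, at 0.46 in wild type, was not among those tested under such a name and is not counted here. None of the other 9 passed by limma in any of 7 comparisons, which are the 5 above, the tunicamycin effect averaged over genotypes and the genotype difference averaged over treatments (8.29% of all probe sets passed in that one). At an unadjusted p under 0.05, between 0 and 3 of the 9 were found in each, against 3.67% to 23.1% of all probe sets. Their tunicamycin effects in wild type had a median of 0.04 and ran from -0.05 to 0.35, and in ire1a ire1b a median of 0.07, from -0.11 to 0.25. BZIP60, at 0.67 in wild type, and BZIP28, at 0.63 in ire1a ire1b, thus lay above the range of the other 9. In the other genotype both lay within it, BZIP60 at 0.20 in ire1a ire1b and BZIP28 at -0.04 in wild type. BZIP17 lay within it in both, at 0.01 in wild type and -0.11 in ire1a ire1b. The smallest p in the averaged tunicamycin effect belonged to bZIP44, at 0.32 ± 0.12 in wild type (limma adjusted p = 0.160). Under tunicamycin bZIP44 differed between genotypes by -0.38 ± 0.12 (limma adjusted p = 0.0525), a value just past the threshold with the replicate block (0.0476), the 60th percentile filter (0.0417), quantile normalization (0.0416), array weights (0.0320) and without either of 2 single arrays. bZIP52 had 0.32 ± 0.20 and BZIP53 0.04 ± 0.11 in wild type (BZIP53 -0.01 with median centring), neither with a call.

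Each factor was also set beside the genes most like it over the 12 arrays, among 7317 other probe sets of a single named gene, by Pearson r of log2 signal. For BZIP60 these were AT2G39650 (r 0.91), DIM1B (0.91), AT4G02840 (0.91), SPK1 (0.87) and AT5G10620 (0.86), with Spearman rho of 0.86 to 0.94. AT2G39650 passed in wild type, at 0.46 (limma adjusted p = 0.0485). For BZIP28 they were AT3G02700 (0.87), AT4G24160 (0.86), AT2G37540 (0.81), AT4G35985 (0.80) and AT1G76120 (0.79), with rho of 0.52 to 0.85. AT4G35985 rose in ire1a ire1b by 1.25 (limma adjusted p = 0.0232), and it was higher in ire1a ire1b than in wild type under tunicamycin by 0.65 (limma adjusted p = 0.0361). For BZIP17 they were AT2G46170 (0.89), AT1G12450 (0.86), AT1G04140 (0.83), HTB1 (0.83), a histone H2B gene, and AT5G03380 (0.80), with rho of 0.75 to 0.92. The points share arrays and groups and were the highest of a long search, so these values are descriptions. AT1G76120 and AT1G12450 were dim, with arrays as low as 53.1 and 50.2, against a filter at a signal of 68.7. None of the 15 genes is a listed pathway gene or another bZIP gene.

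**Figure D5:**
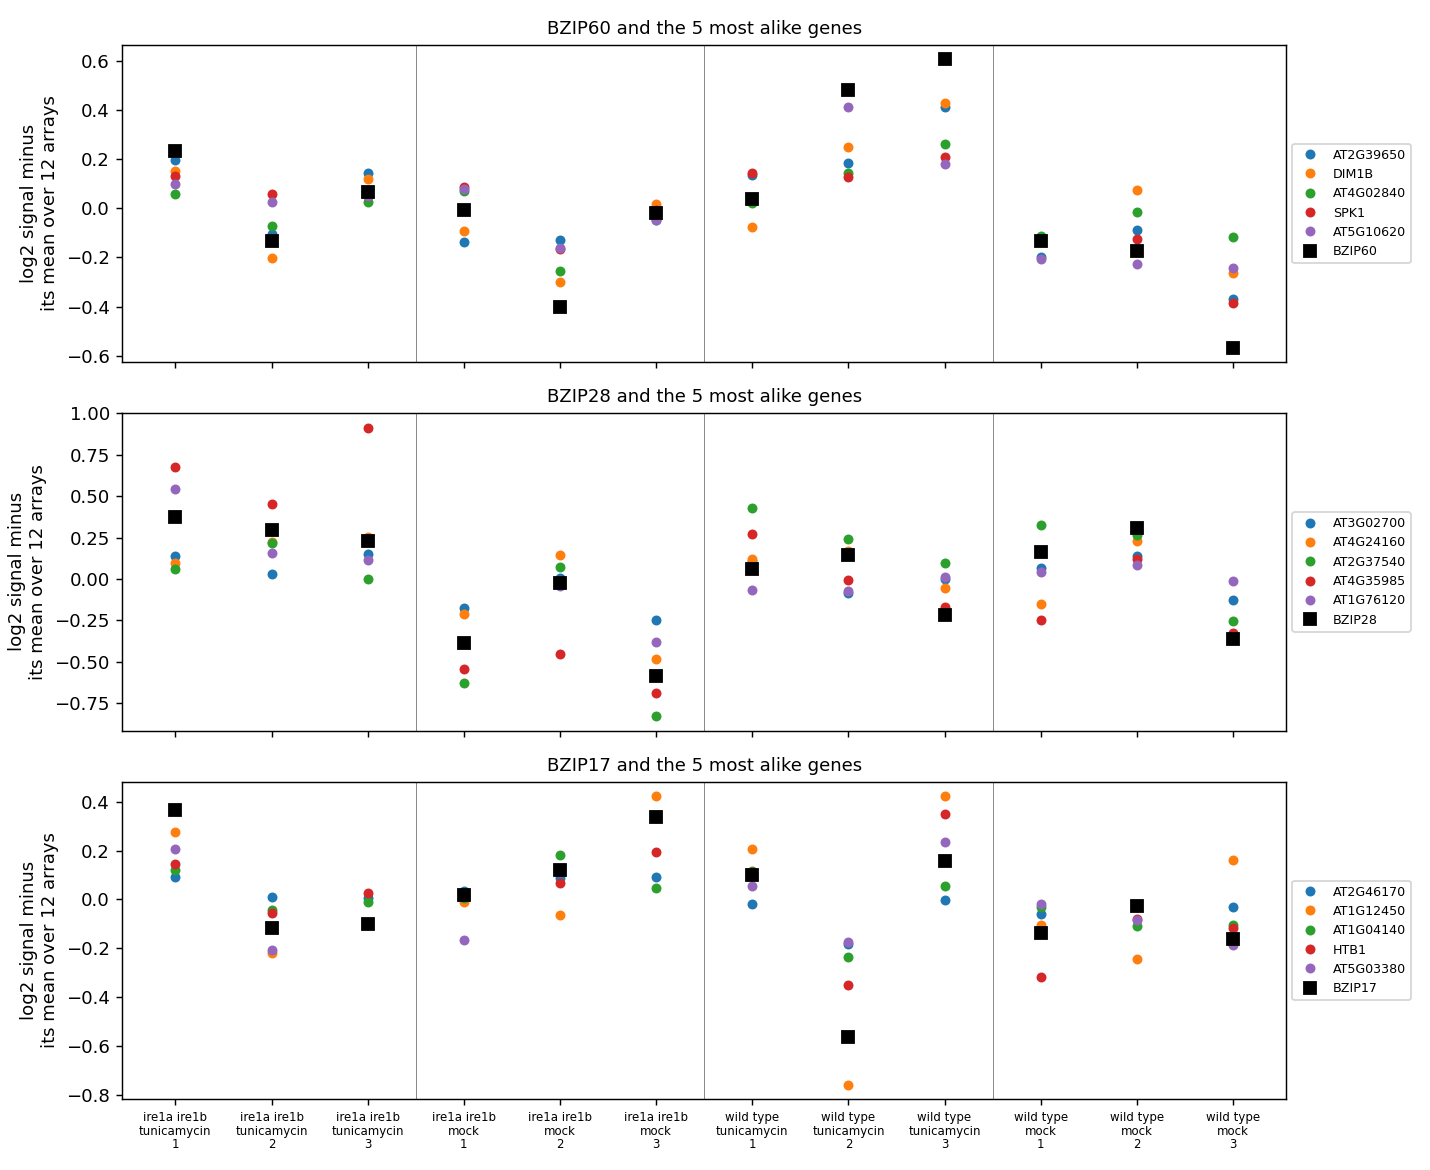
Log2 signal relative to each gene's own mean on the 12 arrays for each factor and for the 5 genes with the highest Pearson r to it. BZIP60 itself is highest on wild-type tunicamycin array 3, and BZIP28 and BZIP17 on ire1a ire1b tunicamycin array 1.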

How the data were processed

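The deposited table holds array intensity (signal) per probe set on a linear scale, for which the submitters' processing notes name MAS5. The MAS5 version is not given in the sources used here. MAS5 values of dim probe sets vary more than those of bright ones. Probe sets were named through the platform's gene table and RefSeq.

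The log2 of each signal was used as it stands, with no added normalization. Probe sets with a mean log2 signal above the 40th percentile (6.10, a signal of 68.7) were tested, array controls left out. A limma 3.58.1 model (R 4.3.3) with 1 mean per group, eBayes and an intensity trend gave two-sided tests, adjusted by Benjamini-Hochberg over all tested probe sets, with a threshold of 0.05. The fit was tested on simulated data. Exact permutation tests, two-sided, exchanged arrays between the groups compared, and for averaged effects only within each level of the other factor. The number of arrays limits the precision.

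Replicate numbers come from the titles. Deviations of same-numbered arrays from their group means correlated at 0.112 to 0.507 between the ire1a ire1b treatments, above the 0.1 taken to show pairing, and at 0.0172 to 0.131 in wild type, 0.0818 to 0.392 between genotypes under mock and -0.0951 to 0.0254 under tunicamycin, which were treated as unpaired. The main fit used no block in any comparison, the ire1a ire1b treatments included. The exact permutation tests did not use the pairs either.

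The 3 genes and the pathway lists were chosen with earlier results of these data known. Pathway genes are named if called in any comparison, or, up to 2 per list, by the smallest p of the averaged tunicamycin effect; UBC32, DER2.1 and DER2.2 were added after their values were seen. For likeness, the 5 highest r are named, and of the bZIP family the 3 smallest p. Alternatives changed the filter, scaling, pseudocount, prior, array weights, arrays fitted and replicate block, or left out each array.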

Additional observations from a re-analysis of the deposited data

Results flagged for a closer look

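The response of ATERDJ3B, an ER co-chaperone, to tunicamycin differed between the genotypes by a test of the difference itself: the interaction was 0.73 on the log2 scale (limma adjusted p = 0.0197), with ire1a ire1b above wild type. It did not pass when any of 7 of the 12 arrays was left out (adjusted p between 0.0530 and 0.0649). Groups of 3 arrays were not searched for single outlying arrays.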

How the results depend on the processing

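Of the 3 factors' results under all alternatives, 401 kept their direction and side of the threshold, 6 lost the call, 2 gained one and 23 turned sign. The 401 include fits that left out an array outside the comparison, where the value could not move. For BZIP60 in wild type the log2 change was 0.62 to 0.70 (limma adjusted p 0.0128 to 0.0590); it lost the call without the intensity trend (0.67) and kept it with the replicate block (0.67, adjusted p = 0.0309), and leaving out single arrays gave 0.53 to 0.84. BZIP60 averaged over genotypes passed with array weights (0.39, adjusted p = 0.0458) and without wild-type tunicamycin array 1, and ran from 0.36 to 0.52 over left-out arrays. Signs turned for BZIP28 between genotypes averaged over treatments (0.026 median-centred, 0.011 quantile, -0.13 to 0.036 over left-out arrays) and in wild type (-0.24 to 0.094), and for BZIP17 in wild type (-0.045, -0.013 and, with array weights, -0.069; -0.12 to 0.24), in ire1a ire1b (0.12 with array weights), in the interaction (0.19 with array weights; -0.35 to 0.012), under tunicamycin between genotypes (-0.079 to 0.28) and averaged (0.025 with array weights; -0.13 to 0.063). Among other genes, signs turned for AT5G07340 in the interaction (-0.011 with array weights; -0.062 to 0.15 over left-out arrays), CRT1b in wild type (0.0030 quantile; -0.060 to 0.026), S1P and HYH in ire1a ire1b (-0.11 to 0.17, and -0.36 to 0.28) and BZIP53 in wild type (-0.013 median-centred; -0.051 to 0.095) and under tunicamycin (-0.041 to 0.11). Array weights gave AT5G07340 (adjusted p = 0.0147) and ATERDJ3B (0.0498) calls in ire1a ire1b, and OS9 in wild type (0.0113; 0.0409 on wild-type arrays alone). CRT1b passed between genotypes under tunicamycin with the replicate block (0.0148) and 4 other settings, and bZIP44 with the block (0.0476) and 3 others. The block changed no factor's call. With the block, 89 probe sets rose in wild type (169 with array weights, 42 median-centred) and 11 in ire1a ire1b (12 with array weights, 1 on its own arrays). The interaction gave 853 positive and 87 negative calls with array weights, and 5 negative ones with the 60th percentile filter. Under mock, array weights gave 309 higher and 598 lower calls against 22 and 44; median centring moved the share of higher calls to 44.0% against 33.3%, to 80.4% against 68.8% under tunicamycin, and to 69.9% against 53.5% averaged. The cause of these shifts was not tested.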
